A study of Homo sapiens with 32 samples.

Results

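The objects described here are 81 exon-level probe sets that stayed nearly level between androgen-treated and steroid-deplete LNCaP cells although the gene they belong to changed strongly. A probe set is a small group of array probes read as 1 value, usually placed in 1 exon or part of an exon. Members were chosen by the measured values themselves: a probe set had to carry a single gene symbol whose gene had 1 gene-level cluster, the gene-level RMA values (log2 scale) had to differ by 1.5 or more in size between the group means, the probe set's own RMA means had to differ by less than 0.3 in size, and its mean had to be 7 or more in both groups, which is called bright below. The differences at gene and probe set level are therefore a description of the choice and were not tested. The 81 members lay in 66 genes and were drawn from 620335 probe sets in the exon-level table, of which 257184 carried a single symbol. Among 13208 genes with 1 cluster, 217 passed the limit on the gene-level change and 216 of these had annotated probe sets. Clusters were counted among those with a single symbol, so a gene could also be listed in a cluster with several symbols.

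The study hybridised RNA of LNCaP cells, an established androgen-sensitive prostate cancer line derived from a lymph node metastasis, to the Human Exon 1.0 ST Array. Both groups were held for 72 hours in steroid-deplete medium, RPMI-1640 whose serum had been stripped of steroids with charcoal. The treated group then received 10 nM R1881, a synthetic androgen, for 24 hours (4 arrays), and the steroid-deplete group (4 arrays) went without it for the same time. The replicate arrays were of 1 cell line, and nothing in the labels ties a replicate number to a shared culture, so the spread between arrays may be partly technical. Median exon-level RMA was between 4.63 and 4.68 on the R1881 arrays and between 4.69 and 4.73 on the steroid-deplete arrays. Of 10 luminal prostate markers, 5 could be read at gene level through a single-symbol cluster, at 7.71 to 12.33 on the R1881 arrays and 7.64 to 11.66 on the steroid-deplete arrays. KLK3, KLK2 and TMPRSS2 were higher with R1881, by 1.82, 2.54 and 2.57. HOXB13 differed by -0.44 (limma, adjusted p = 0.0018) and EPCAM by -0.12. Stromal markers (4 of 5 readable) lay between 4.41 and 6.65 with R1881 and between 4.59 and 6.69 without it. Among the blood and endothelial markers (4 of 4 readable) PTPRC was between 2.20 and 2.34 on the R1881 arrays and between 2.22 and 2.30 on the steroid-deplete arrays, and CD68 was between 7.07 and 7.17 on the R1881 arrays and between 6.64 and 6.93 on the steroid-deplete arrays, a rise of 0.35 (limma, adjusted p = 0.0049). No basal marker could be read in this way, and the part of other cells in the members' values was not tested.

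An exon array reads a transcript at many places. A gene-level value combines the probe sets along the gene, so when transcription of the whole gene rises or falls, probe sets along it usually move together. Probe sets of 1 gene can also differ, and exon arrays are used to see where along a gene transcripts differ, for instance by alternative first exons, splicing or ends. The files give a value for each probe set and not the transcript it came from. Androgens act through the androgen receptor, a hormone-activated transcription factor that drives secretory and metabolic genes of the prostate epithelium and holds others down.

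The members gathered at the 5′ side of their genes, as set out below, so the sequence around the annotated start is shown for 4 genes whose first listed probe set was a member. GRB10 and CCNG2 fell with R1881 and OTULINL and UAP1 rose. The files hold no probe or exon sequence. Each stretch runs 250 bases before to 50 bases after the RefSeq gene start on GRCh38.p14, at chr7:50793404-50793703 on the minus strand for GRB10, chr4:77156957-77157256 on the plus strand for CCNG2, chr5:14581542-14581841 on the plus strand for OTULINL and chr1:162561281-162561580 on the plus strand for UAP1. Capitals mark the CG dinucleotides.
GRB10: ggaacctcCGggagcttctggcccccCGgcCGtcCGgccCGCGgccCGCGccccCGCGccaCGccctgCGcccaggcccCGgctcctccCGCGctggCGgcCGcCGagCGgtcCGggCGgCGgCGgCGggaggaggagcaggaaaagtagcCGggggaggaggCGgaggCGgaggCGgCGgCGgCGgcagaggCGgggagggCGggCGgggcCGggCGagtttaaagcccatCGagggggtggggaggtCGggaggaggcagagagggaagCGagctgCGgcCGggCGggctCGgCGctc
CCNG2: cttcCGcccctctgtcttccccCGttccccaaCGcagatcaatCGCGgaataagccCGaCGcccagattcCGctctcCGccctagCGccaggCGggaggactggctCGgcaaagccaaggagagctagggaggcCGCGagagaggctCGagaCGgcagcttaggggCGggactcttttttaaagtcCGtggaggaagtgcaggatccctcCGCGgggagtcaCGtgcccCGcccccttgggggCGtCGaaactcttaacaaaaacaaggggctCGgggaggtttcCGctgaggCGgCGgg
OTULINL: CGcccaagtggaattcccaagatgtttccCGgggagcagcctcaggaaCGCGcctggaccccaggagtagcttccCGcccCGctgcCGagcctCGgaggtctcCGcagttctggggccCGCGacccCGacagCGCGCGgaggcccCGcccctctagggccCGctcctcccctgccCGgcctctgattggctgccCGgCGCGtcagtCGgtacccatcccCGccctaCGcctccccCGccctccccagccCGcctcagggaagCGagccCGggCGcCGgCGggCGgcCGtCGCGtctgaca
UAP1: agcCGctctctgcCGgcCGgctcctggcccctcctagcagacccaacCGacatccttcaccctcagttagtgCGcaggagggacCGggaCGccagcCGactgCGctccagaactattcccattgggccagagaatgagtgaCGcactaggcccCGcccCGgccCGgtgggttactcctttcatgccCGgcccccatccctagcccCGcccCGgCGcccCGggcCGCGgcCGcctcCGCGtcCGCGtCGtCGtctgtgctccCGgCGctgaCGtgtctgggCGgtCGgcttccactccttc
GRB10 had 44 CG dinucleotides, a number reached by 4.09% of 27305 RefSeq promoters of that length, OTULINL had 35 (reached by 14.0%), UAP1 had 32 (18.6%) and CCNG2 had 28 (25.9%).

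These starts were GC-rich, and so were those of changed genes with no flat probe set at the 5′ side. Promoters were matched for 49 genes with a member in the first segment of the gene, and their median GC content was 65.7%, against 64.8% for the other 120 changed genes that matched and 58.3% for all promoters. When only those other changed genes with a bright probe set in the first segment were taken, 80 genes, the median was 67.5%. The hexamer TGTTCT, the half-site to which the androgen receptor can bind, was sought on both strands (TGTTCT or AGAACA). It was found in 3 of the 49 promoters (6.12%), in 21 of the other 120 (17.5%), in 11 of the 80 others with a bright probe set in the first segment (13.8%) and in 14.9% of all promoters. None of the 4 stretches printed above holds it. A match of these letters is a description of the window only.

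Across all 1430 bright probe sets of the changed genes, the members lay at no change by choice, while most others followed their gene. Over all genes and annotations 58.4% of the 100067 bright probe sets differed by less than 0.3 in size, against 5.66% of the bright probe sets inside the changed genes. The 1349 bright probe sets that were not members had a median difference of 1.88 in induced genes (n = 996) and -1.92 in repressed genes (n = 353). At the limit itself, the members just inside were those of BMPR1B (0.287), MTOR (0.286) and STK17B (0.284), and the probe sets just outside were those of CTBP1 (0.303), TBC1D4 (0.303) and ABCC1 (0.304), all as R1881 minus steroid-deplete.

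**Figure D1:**
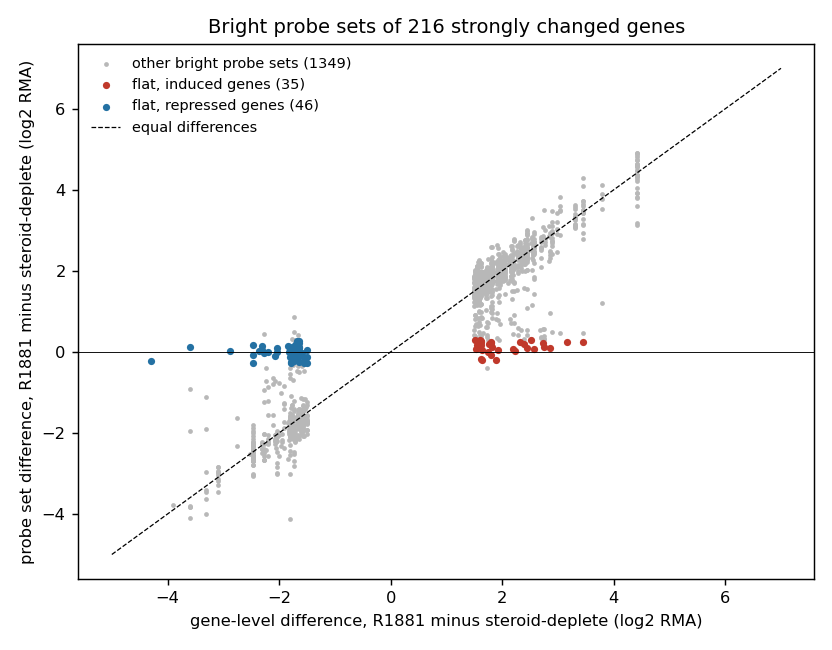
Each point is 1 bright probe set of the 216 changed genes, with the gene-level difference on the x axis and the probe set's own difference on the y axis, both R1881 minus steroid-deplete in log2 RMA. The 35 members in induced genes (red) and the 46 in repressed genes (blue) lie along 0, while most of the other 1349 probe sets (grey) lie near the dashed line of equal differences.

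Limma fitted over all probe sets called 4.05% of the table at an adjusted p under 0.05, and 3.99% of gene-level clusters at an adjusted p under 0.005 with at least 2-fold change. It called none of the 81 members, which the choice made likely, and called 1277 of the other 1349 bright probe sets. Those others came from genes chosen for a strong change on the same arrays, with the small differences taken out. The choice thus made their calls likely too. None of the members had an unadjusted p under 0.05, which the choice made likely as well. The standard error of a member's difference was between 0.17 and 0.28, so a small difference was not fixed closely. The 95% interval lay within 0.5 on either side of 0 for 14 of the 81. It lay within 1 for all 81, and in no member did it reach the change of its gene. Staying within 1 and short of the gene's change had to follow from the limits of the choice at standard errors of this size. Neither was a test of flatness. The R1881 and the steroid-deplete arrays overlapped in 79 members. Complete separation of the arrays occurred in 11.4% of all probe sets. Among the members it was seen for BMPR1B, a BMP receptor, at 9.21, 9.04, 8.91 and 8.97 with R1881 against 8.71, 8.72, 8.77 and 8.78 without it, and for SMAD1, which carries the BMP signal to the nucleus, at 7.41, 7.73, 7.61 and 7.55 with R1881 against 7.89, 7.82, 7.86 and 7.87 without it.

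The annotated probe sets of each gene were ranked by identifier and the ranks split into 3 equal segments. Read in this order, the members lay at both ends of their genes and left the middle almost empty. The first segment of the gene held 32 members, the middle segment 4 and the last segment 45, whereas the bright probe sets of the same 216 genes were spread as 499, 500 and 431. The 2 ends separated by strand. In plus-strand genes 30 of 35 members lay in the first segment by identifier, and in minus-strand genes 42 of 46 lay in the last segment. Identifiers on this array run along the chromosome within each strand. On each of 23 chromosomes the gene-level clusters were split by identifier into 2 blocks, read as plus strand and then minus strand. The split was put where identifiers rose most closely with gene position within the blocks. Spearman's rho was at least 0.885 in each block, which the choice of the split favours (across genes, with no p, the genes sharing the design of the array). That identifiers also run along the chromosome between the probe sets of 1 gene is assumed here, since the files give no position for single probe sets.

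Turned into transcript order, 73 of the 81 members (90.1%) lay in the first segment of their gene, 3 in the middle segment and 5 in the last segment, against 37.8%, 34.9% and 27.3% of the bright probe sets. The first listed probe set of a gene was a member in 37 cases, the second in 17, the one at place 3 in 10 and a later one in 17. Among bright probe sets the share that was flat was 43.0% at the first place (37 of 86), 22.4% at the second (17 of 76), 11.1% at place 3 (10 of 90) and 1.44% from place 4 on (17 of 1178). The 5 include a SCAP probe set, listed last in its gene, whose identifier lies outside the interval of the SCAP cluster, so its place is uncertain. No other member was the last listed probe set of its gene. Strand came from the RefSeq promoter table for 169 of the 216 genes and from the block of identifiers for 47, a procedure that gave the known strand for 99.5% of 10692 genes. On chromosome 8 no strand was known, so the procedure went unchecked for its 495 genes. NDRG1, TPD52, RDH10 and SLCO5A1 lie there, and their strand came from the block. With only the genes whose strand the promoter table gave, 88.9% of the members lay in the first segment.

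In most genes with a member the first bright probe set downstream that was not flat had moved with the gene. Such a probe set differed by 0.3 or more by choice. It could lie far off, at place 20 in ABLIM1 after a member at place 7. The first bright probe set from the 5′ side was a member in 53 of the 66 genes, and in 8 genes at least the first 2 bright probe sets were. In 63 genes at least 1 member lay in the first segment, and 51 of them had a bright probe set further downstream that was not flat. The first such probe set differed by a median size of 1.77 (range 0.32 to 3.50), by 1 or more in 41 of the 51 genes and in the direction of the gene in 50. The exception was TARBP1, whose next bright probe set stood at 0.33 with a gene-level difference of -1.78. In 10 genes every bright probe set was a member, and in 9 of these there was only 1. The limit of 7 in both groups took part in this, since it leaves out probe sets that fall below it in 1 group. LRRN1 had 5 probe sets at 7 or more in either group but 1 in both. The numbers were 10 and 1 in AHNAK2 and 11 and 4 in SLCO5A1.

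**Figure D2:**
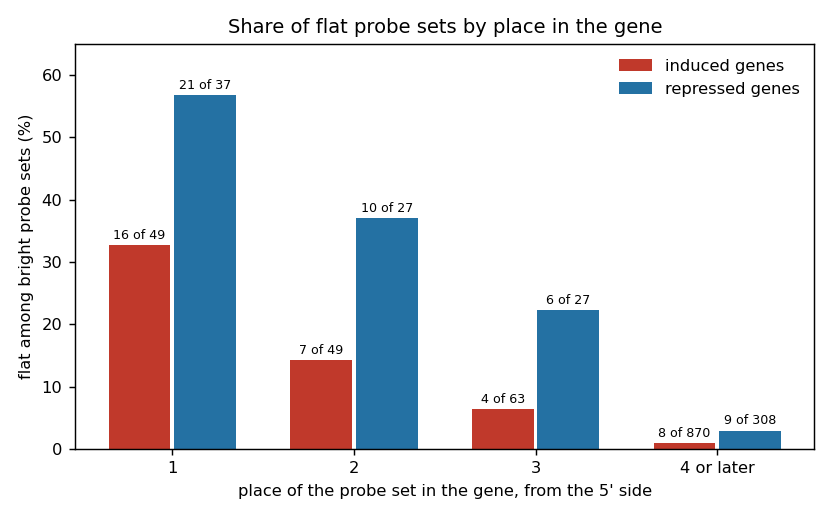
Bars give the share of bright probe sets (y axis, percent) that were flat at places 1, 2, 3 and later of the gene counted from the 5′ side (x axis), for induced (red) and repressed (blue) genes, with the counts above. The share was 32.7% and 56.8% at the first place and 0.920% and 2.92% from place 4 on.

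The place of a probe set was set against its share of the gene-level change without using the limit of 0.3, over all probe sets with a mean of 7 or more in either group. In induced genes the median ratio of the probe set's difference to the gene's difference was 0.36 at the first place (n = 76), 0.89 at the second (n = 96), 0.98 at place 3 (n = 99) and 1.05 from place 7 on, short of the last (n = 1107). In repressed genes it was 0.19 (n = 51), 0.81 (n = 57), 0.99 (n = 63) and 1.09 (n = 674). At the last place it was 1.07 in induced genes and 1.12 in repressed genes, so the small ratios were at 1 end of the gene. The middle quartiles of the first-place probe sets lay between ratios of 0.17 and 0.81 in induced genes and between -0.01 and 0.73 in repressed genes.

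**Figure D3:**
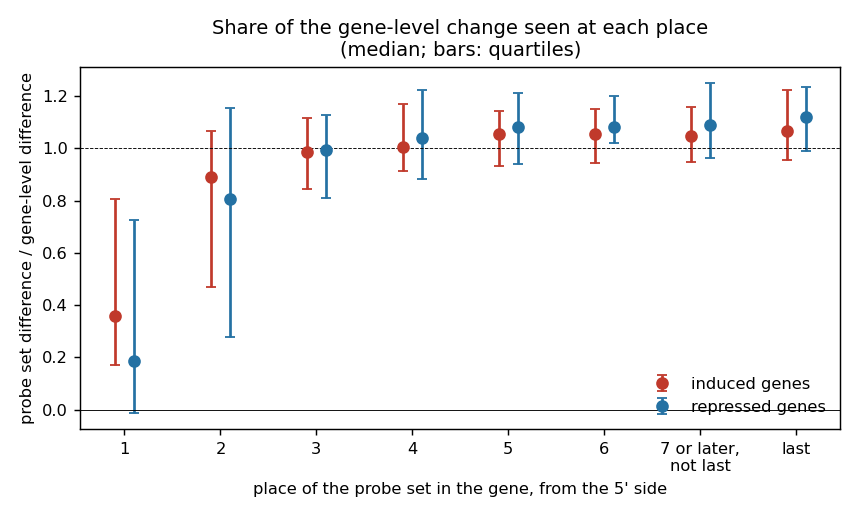
The y axis gives the probe set difference divided by the gene-level difference, and the x axis the place from the 5′ side; points are medians and bars run between the quartiles, for probe sets with a mean of 7 or more in at least 1 group. Medians at the first place were 0.36 in induced (red) and 0.19 in repressed (blue) genes and were near 1 from place 3 on.

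Flat probe sets made up a larger share of the bright probe sets in repressed than in induced genes. The 123 induced genes held 1031 bright probe sets, of which 35 were flat (3.39%), and the 93 repressed genes held 399, of which 46 were flat (11.5%). At least 1 member was found in 32 induced genes (26.0%) and 34 repressed genes (36.6%). Of the genes with any bright probe set these were 30.8% of 104 and 45.9% of 74. The requirement of 7 in both groups weighs differently on the 2 directions: 45.9% of the annotated probe sets of induced genes passed it and 23.3% of those of repressed genes. With a mean of 7 in either group as the denominator the shares were 2.03% and 4.30%, and the ratio of the shares was 2.12 in place of 3.40. Gene-level means in the group where the gene was lower had a median of 7.21 in the induced genes (steroid-deplete arrays) and 6.16 in the repressed genes (R1881 arrays).

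The 5′ placement was seen in both directions. In transcript order 31 of 35 members of induced genes and 42 of 46 of repressed genes lay in the first segment. The first listed probe set accounted for 16 members of induced and 21 of repressed genes. The first listed probe set was flat in 32.7% of the cases where it was bright in induced genes (16 of 49) and in 56.8% in repressed genes (21 of 37), and after the first segment the shares were 0.611% (4 of 655) and 1.71% (4 of 234). Of the genes with members, 3 induced and 9 repressed genes had 2, and SLCO5A1, a repressed gene, had 4.

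The members of induced genes leaned upward within the limit and those of repressed genes did not lean one way. Their median difference was 0.17 in induced genes, with 31 of 35 higher with R1881, and 0.01 in repressed genes, with 20 of 46 lower with R1881. With arrays centred on their medians the shares leaning with the gene were 87.5% in induced and 35.0% in repressed genes. Iter-PLIER, the other summary of the same probes, kept 63 of the 81 members under 0.3 on its log2(value + 16) scale, with a range of -1.93 to 0.40. These were 32 of the 35 members of induced genes and 31 of the 46 of repressed genes. The member at -1.93 was that of TLL1, and no other member reached 1 in size, with that of COLEC12 at -0.96.

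Among the induced genes NDRG1, a stress- and androgen-responsive gene, had the largest change of those with a member. Gene-level RMA was 12.25 ± 0.05 with R1881 and 8.80 ± 0.08 without it (SD, n = 4 each), a difference of 3.46. Probe set 3154366, place 2 of 32, read 8.98, 9.01, 8.54 and 8.93 on the R1881 arrays against 8.51, 8.61, 8.53 and 8.78 on the steroid-deplete arrays. The groups overlapped at 1 R1881 array, and the member differed by 0.26 ± 0.19 (SE). The 16 bright probe sets downstream had a median difference of 3.47, and the first of them, at place 5, stood at 3.50.

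OTULINL, an inactive relative of the deubiquitinase OTULIN, rose by 3.16 at gene level, to 8.61 ± 0.22 with R1881, against 5.44 ± 0.28 without it. Its only bright probe set, 2802698, was the first of 13 and read 10.92, 11.16, 11.40 and 11.38 with R1881 against 10.74, 10.92, 11.02 and 11.16 without it. It was thus brighter on every array than the gene-level value, and its groups overlapped. TPD52, a vesicle trafficking protein often raised in prostate cancer, rose by 2.85. Its first listed probe set, 3141921 (17 in the gene), read 8.55, 8.59, 8.50 and 8.63 with R1881 against 8.57, 8.57, 8.37 and 8.41 without it, and the 7 other bright probe sets had a median difference of 2.47. With a standard error of 0.17 for a difference of 0.09, the 95% interval of this member was -0.30 to 0.47.

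TMCC3, a protein of the endoplasmic reticulum membrane, rose by 2.75 at gene level. Probe set 3466245, place 3 of 10, read 8.06, 7.94, 7.86 and 8.01 with R1881 against 8.36, 7.90, 7.52 and 7.58 without it, with the steroid-deplete arrays spread on both sides of the R1881 arrays. Its other 2 bright probe sets had a median difference of 0.35. The gene-level mean without R1881 was 5.87, below the 7 asked of a bright probe set. Probe sets at that level without R1881 could not count as bright, whatever their change. DBI, which binds acyl-CoA esters, rose by 2.73. Its member, 2502829, was at place 4 of 8 and so lay in the middle segment, and read 7.67, 7.58, 7.58 and 8.11 with R1881 against 7.39, 7.49, 7.52 and 7.63 without it, while its other 4 bright probe sets had a median difference of 2.80.

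Each of the other induced genes among the 10 with the largest changes had its member in the first segment. In STK17B and LPAR3 a bright probe set that was not flat came before the member, at 0.42 in LPAR3. CYP2U1, a cytochrome P450 that oxidises fatty acids, rose by 2.57 and its first probe set differed by 0.08. STK17B, a kinase linked to apoptosis, rose by 2.51 with its place 5 at 0.28. LPAR3, a receptor for lysophosphatidic acid, rose by 2.45 with its second probe set at 0.09, the brightest of all members at a mean of 11.95 with R1881 and 11.85 without it. UAP1, which makes the sugar donor UDP-N-acetylglucosamine, rose by 2.39 with its first probe set at 0.20, and the next bright probe set stood at 0.32. ELL2, a transcription elongation factor, rose by 2.32 with its second probe set at 0.25 and the next at 2.62. MTOR, the growth-controlling kinase, rose by 1.52 at gene level. Its first probe set of 61, 2396637, read 9.86, 9.69, 10.05 and 10.22 with R1881 against 9.38, 9.75, 9.97 and 9.58 without it, whereas the other 41 bright probe sets had a median difference of 1.52. The MTOR member overlapped between the groups and lay close to the limit, at 0.29.

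**Figure D4:**
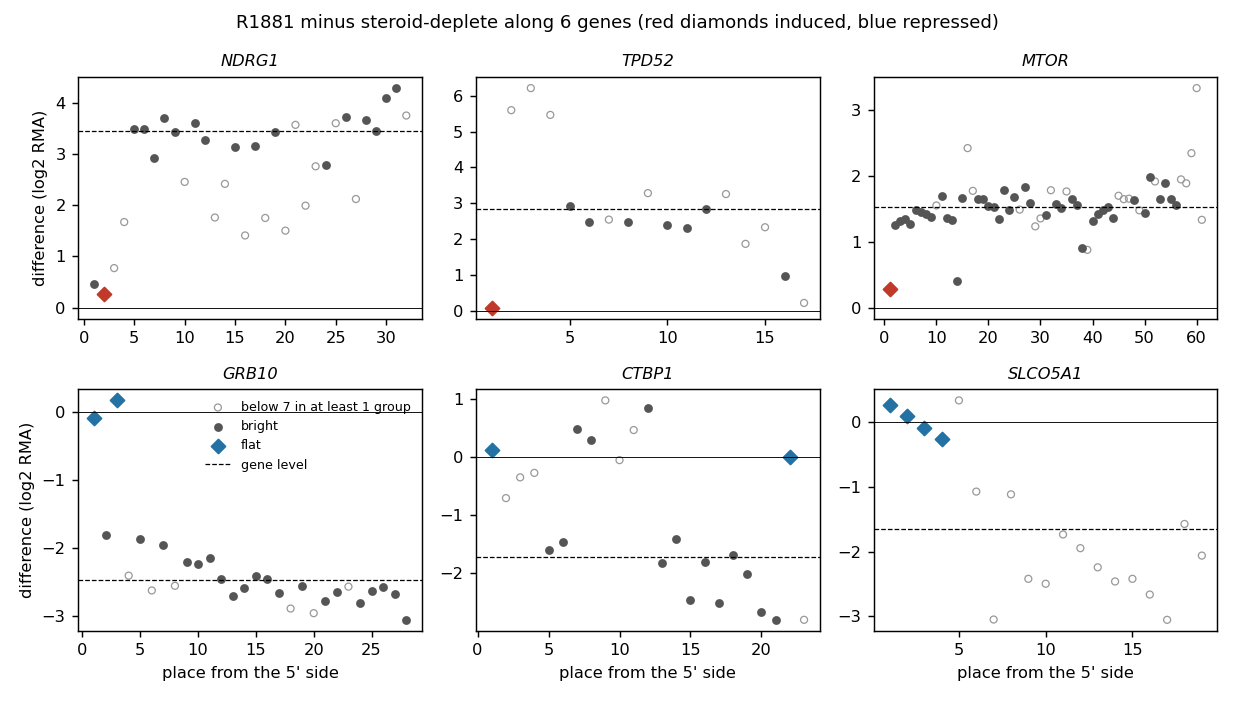
Each panel shows 1 gene, with the place of each probe set from the 5′ side on the x axis and its difference, R1881 minus steroid-deplete in log2 RMA, on the y axis; diamonds are flat members, filled circles other bright probe sets, open circles probe sets below 7 in at least 1 group, and the dashed line is the gene-level difference. Members stand at the 5′ side in all 6 genes, and CTBP1 has a second one at place 22 of 23.

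Of the induced genes with the most flat probe sets, PCTP, TRIM36 and SCAP had 2 each, and all the bright probe sets were flat in DIPK2A and MAK, which had 1 each. PCTP, a phosphatidylcholine transfer protein, rose by 1.59. Its probe set 3727724, place 8 of 17, read 7.80, 8.26, 8.01 and 7.42 with R1881 against 7.68, 7.82, 7.86 and 7.49 without it, and 3727715, place 2 of 17, differed by 0.25. TRIM36, a ubiquitin ligase, rose by 1.64. Its probe set 2871650, place 4 of 23, read 11.11, 11.07, 10.61 and 10.59 with R1881 against 11.23, 10.89, 10.98 and 11.11 without it, and 2871651 just before it differed by 0.04. The TRIM36 members were on the 5′ side of the next bright probe set, at place 14, which stood at 1.66.

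SCAP, which escorts the sterol-regulated transcription factors SREBP, rose by 1.63. Its first probe set, 2672767, read 8.54, 8.34, 8.15 and 8.48 with R1881 against 8.07, 8.22, 8.23 and 7.95 without it, and the second stood at 2.10. The other SCAP member, 2621388, carries an identifier outside the interval of the SCAP cluster, the only such case among the 81, so its place in the gene, listed as the last, is uncertain. DIPK2A, a kinase-like secretory protein, rose by 2.22, and its probe set 2646328 read 7.27, 7.32, 6.61 and 7.43 with R1881 against 7.24, 6.94, 7.24 and 7.09 without it. MAK, a kinase first found in male germ cells, rose by 1.76, and its probe set 2941678 read 8.15, 7.97, 7.82 and 8.07 with R1881 against 7.99, 7.67, 7.86 and 7.68 without it. Both were the first listed probe set of the gene, and in both the arrays of the groups overlapped.

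**Figure D5:**
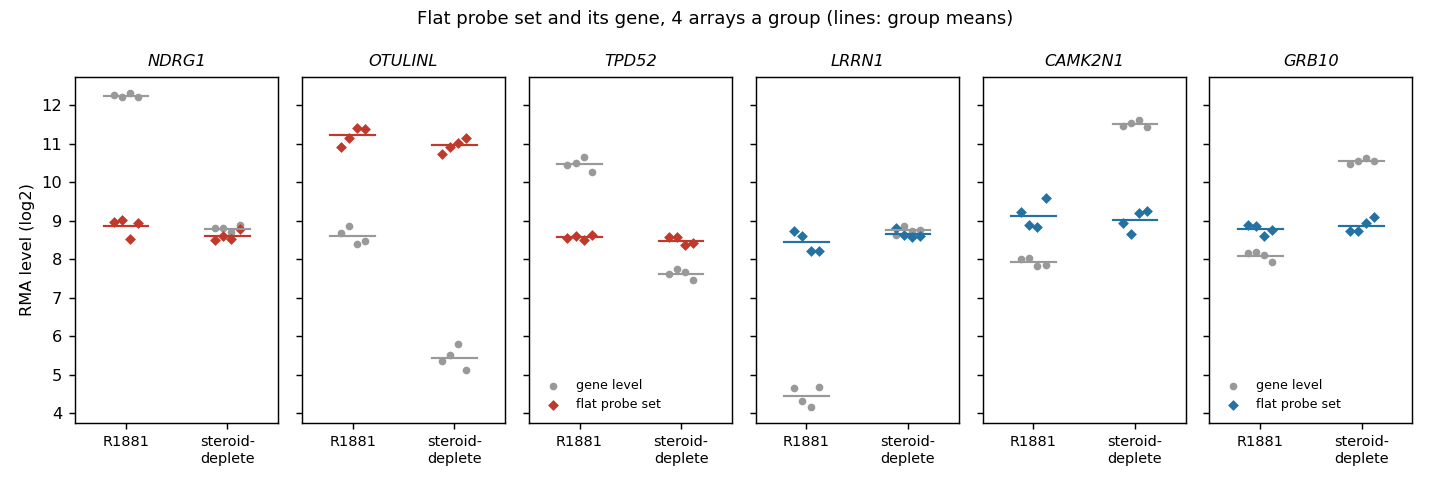
Log2 RMA levels (y axis) on the 4 R1881 and the 4 steroid-deplete arrays (x axis) for 3 induced and 3 repressed genes; diamonds are the brightest flat probe set of each gene, grey circles the gene-level value, and lines the group means. Gene-level values separate in all 6 genes, by 3.46 in NDRG1 and -4.30 in LRRN1, while the flat probe sets overlap.

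Among the repressed genes LRRN1, a leucine-rich-repeat membrane protein, had the largest change. Gene-level RMA was 4.45 ± 0.26 with R1881 and 8.75 ± 0.10 without it, a difference of -4.30. Its first probe set of 6, 2608312, was its only bright one and read 8.74, 8.59, 8.21 and 8.23 with R1881 against 8.82, 8.64, 8.59 and 8.60 without it. It stayed near the steroid-deplete level of the gene, with a difference of -0.22 ± 0.20 (SE). CAMK2N1, an inhibitor of calcium/calmodulin-dependent kinase II, fell by 3.59 on the log2 scale. Its second probe set of 8, 2400185, read 9.22, 8.89, 8.85 and 9.59 with R1881 against 8.95, 8.67, 9.19 and 9.25 without it, and the 5 bright probe sets downstream had a median difference of -3.82. The next in line stood at -1.95, between the flat and the fully changed probe sets. The first listed probe set, before the member, was bright and not flat. All 6 bright probe sets besides the member stood between -4.11 and -0.92.

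AHNAK2, a very large scaffold protein, fell by 2.88 with its only bright probe set, 3581324, flat at the first place of 17. That probe set read 8.31, 8.38, 7.77 and 8.02 with R1881 against 8.40, 8.08, 7.86 and 8.02 without it, and the groups overlapped almost completely. TLL1, a metalloprotease of the tolloid family, fell by 2.48. Its probe set at place 3 of 30, 2750758, read 7.81, 7.63, 7.40 and 7.25 with R1881 against 7.68, 7.67, 7.85 and 7.96 without it, while 21 bright probe sets downstream had a median difference of -2.46. This is the member for which Iter-PLIER gave -1.93, so its flatness rests on the RMA summary. The bright probe sets of TLL1 before the member were not flat either. All 23 besides the member stood between -3.03 and -2.01.

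GRB10, an adaptor that dampens insulin receptor signalling, fell by 2.47, with gene-level means of 8.09 ± 0.12 with R1881 and 10.55 ± 0.07 without it. Its first probe set of 28, 3050570, read 8.89, 8.87, 8.60 and 8.77 with R1881 against 8.72, 8.72, 8.94 and 9.10 without it. The one at place 3, 3050566, differed by 0.17, and the second, which lies between them, was not a member (-1.81). The 19 bright probe sets from place 5 on had a median difference of -2.57.

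The other repressed genes among the 10 with the largest changes were SPRY1, SLC44A1, MAN1A1, CDK8 and COLEC12. SPRY1, an inhibitor of receptor tyrosine kinase signalling, fell by 2.37 with its first probe set at 0.03. SLC44A1, a choline transporter, fell by 2.31 with its first 2 probe sets at 0.15 and 0.05 and the next bright one at -2.26. MAN1A1, a mannosidase of the Golgi, fell by 2.28 with its place 3 at -0.03. Its only other bright probe set stood at 0.43, against the direction of the gene. CDK8, the kinase of the Mediator complex, fell by 2.19 with its second probe set at 0.01 and place 3 at -1.56. The 9 other bright probe sets of CDK8, the first listed one among them, stood between -2.56 and -0.86. COLEC12, a scavenger receptor with a collagen-like stretch, fell by 2.08 with its first probe set at -0.10, for which Iter-PLIER gave -0.96. In all 5 the member lay in the first segment of the gene.

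SLCO5A1, a member of the organic anion transporter family, had the most flat probe sets, and they were the first 4 of its 19 in unbroken order and its only bright ones. The gene fell by 1.65. Probe set 3139638 at the first place read 7.76, 7.71, 7.80 and 7.64 with R1881 against 7.90, 7.29, 7.44 and 7.18 without it, with the R1881 arrays inside the range of the others. The next 2, 3139636 and 3139635, differed by 0.10 and -0.09. Place 4 was at -0.25, and the 95% intervals of all 4 held 0, so no order is read from them.

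ATP8A1, a lipid flippase, fell by 1.67. Its probe set at place 3 of 34, 2767496, read 7.43, 7.39, 7.16 and 7.25 with R1881 against 7.46, 7.29, 7.35 and 7.71 without it, and the first, 2767498, differed by 0.28. TARBP1, an RNA methyltransferase, fell by 1.78. Its second probe set of 33, 2461529, read 8.70, 8.27, 7.87 and 8.18 with R1881 against 8.77, 8.32, 8.23 and 8.32 without it, and the first, 2461530, stood at the same mean of 7.33 in both groups. In ATP8A1 and TARBP1 the gene-level means with R1881, 4.98 and 5.90, were below the level asked of a member.

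ZIC2, a zinc finger transcription factor, fell by 1.81 and had 1 member in the first and 1 in the last segment. Probe set 3498803, place 9 of 12, read 10.14, 10.10, 10.52 and 10.85 with R1881 against 10.45, 10.21, 10.15 and 10.49 without it, and 3498785 at the first place differed by -0.12, while the other 4 bright probe sets had a median difference of -2.73. TIMP2, an inhibitor of matrix metalloproteases, fell by 1.67. Its second probe set of 15, 3772706, read 9.51, 9.16, 9.59 and 9.43 with R1881 against 9.73, 9.10, 9.15 and 9.34 without it, and place 6, 3772677, differed by 0.10. ZIC2 and TIMP2 were 2 of the genes with a member outside the first segment. The others were CTBP1, MAPRE2, DBI, PCTP and BCAP29, and SCAP if the listed place of its second member is taken.

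By the known role of their product, the 66 genes, 32 induced and 34 repressed, were sorted by hand into groups. The largest group, kinases and growth factor or receptor signalling, had 17 genes, 9 induced and 8 repressed. Cell surface, adhesion and matrix genes were 1 induced (SPOCK1) and 10 repressed, among them FN1, which encodes fibronectin. Metabolic and protein-maturation enzymes were 8 induced and 2 repressed (DDC and MAN1A1). All 6 vesicle and actin genes, such as the small GTPases RAB3B and RAB27A, were induced. The 6 transport genes were 2 induced and 4 repressed, and the 6 transcription genes were 2 induced and 4 repressed, among the repressed ones the nuclear receptors NR1D2 and NR3C2. The 5 cell cycle, stress and RNA genes were all repressed, and the 5 remaining genes were 4 induced and 1 repressed. The groups were made from the list of members, the other changed genes were not sorted in this way, and no theme is read from them.

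Of all the changed genes, 26.0% of the induced and 36.6% of the repressed held a member. Of 20 listed androgen-induced genes among the changed genes, 4 (DBI, ELL2, NDRG1 and TPD52) held a member, 1 each. Of 15 listed androgen-repressed genes among them, 5 (AHNAK2, CAMK2N1, DDC, GRB10 and LRRN1) held 6 members. The lists were made with earlier results of these data known, so the calls of their genes are no finding: 22 of 22 readable genes of the first were called higher and 16 of 16 of the second lower, where 317 clusters of all 16309 were called higher and 333 lower. KLK3, KLK2 and TMPRSS2 had no member. The 6 readable of 7 genes for which androgen-dependent isoforms were described did not pass the limit on the gene-level change and so could hold no member.

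The rule did not use the way arrays of 1 group vary together, so each member was set against its gene in the deviations from the group means over 8 arrays. The median correlation with the gene was -0.11 for the 81 members and 0.66 for the other 1349 bright probe sets. The members' median lay between -0.17 and 0.07 when 1 array was left out at a time, being above 0 without steroid-deplete replicate 1. The correlation was positive for 33 members (40.7%) and 90.4% of the others. The values also differed by place: bright probe sets at the first place that were not members had a median of 0.20 (n = 49) and the 37 members there one of -0.04, and from place 4 on the members had 0.05 (n = 17) and the others 0.68 (n = 1161). In the first segment as a whole they were -0.11 for the members (n = 73) and 0.57 for the others (n = 468). The spread between arrays was alike, with a median pooled SD of 0.20 for the members and 0.20 for the others. Each value comes from 8 arrays and the gene-level value contains the probe sets, so these are descriptions.

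The choice of small differences was checked on arrays whose own values were not used in it. The deposited values were already normalised between arrays, so the left-out arrays were not fully independent of the choice. Members were chosen anew on 3 arrays a group and read on the left-out R1881 and steroid-deplete arrays of the same number, for each of the 4 numbers. Between 81 and 91 probe sets were chosen, and on the left-out arrays their median share of the gene's difference was 0.05, 0.15, 0.06 and 0.19 in induced genes and 0.04, -0.03, 0.05 and -0.02 in repressed genes. Over both directions it was between 0.04 and 0.09, against 1.00 to 1.02 for the other bright probe sets of the changed genes. The left-out difference was under 0.5 of the gene's own in 90 of 91, 82 of 82, 80 of 81 and 84 of 88. The 4 exceptions in the last of these were all in induced genes (42 of 46), where the median left-out difference was 0.40. The median size of the left-out difference was 0.21 to 0.35, larger than the 0.12 to 0.17 on the arrays used for the choice. In transcript order 87.8% to 92.6% of these members lay in the first segment.

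Genes that changed less, by 1 to under 1.5 at gene level, were not used by the rule and showed the same placement. This set was looked at after the main values were known. Among 329 such genes 130 held 184 flat bright probe sets, 157 of them (85.3%) in the first segment in transcript order. The first listed probe set was flat in 41.5% of the induced (27 of 65) and 73.9% of the repressed genes (51 of 69) where it was bright, against 1.06% and 4.37% from place 4 on. Over the whole gene the shares were 4.31% of 1252 bright probe sets in induced genes and 11.9% of 1090 in repressed genes.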

How the data were processed

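RNA of LNCaP cells was read on Human Exon 1.0 ST arrays, 8 in all, each summarised in 4 ways by the authors. The deposited log2 values are RMA at gene level (16309 clusters) and exon level (620335 probe sets), already normalised between arrays. The deposited intensity values are Iter-PLIER summaries on a linear scale. The sample titles call them so at both levels, whereas the methods name PLIER for the exon level, and the name in the titles is used here. The labels name RMA, PLIER and build hg18, with versions not given in the sources used here. RMA as used here included quantile normalisation between arrays, and Iter-PLIER discards probes that disagree, so either can shift a single probe set. The number of arrays limits the precision.

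Symbols came from the platform annotation (one symbol for 257184 probe sets and 13482 clusters, several for 2758 and 1967), with 2778 older exon-level and 20 gene-level symbols updated through RefSeq. Probe sets were ranked by identifier within a gene and turned by strand. Differences are R1881 minus steroid-deplete group means. Limma 3.58.1 in R 4.3.3 with Benjamini-Hochberg adjustment was fitted over each whole table, without a block, after tests on simulated data. Iter-PLIER values were used as log2(value + 16). Python 3.11.15, pandas 2.3.3 and numpy 2.4.6 did the rest.

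Members, gene lists and role groups were chosen with earlier results of these data known. Named genes were the 10 induced and 10 repressed genes with the largest change among those with a member, the 5 of each with the most members, and those the study names. Alternatives covered each limit, the other summary, centring, single arrays left out, the order used for position and the reading of symbols.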

Additional observations from a re-analysis of the deposited data

Results flagged for a closer look

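Over the 21 members whose arrays are given one by one and their genes, 84 groups of 4 arrays were examined for an array that stood apart from the other 3, beyond Dixon's 95% limit for the gap as a share of the range. It was met in 4 groups, and about 1 in 20 would meet it by chance, 4.2 of 84. The flat probe set of NDRG1 was at 8.54 on 1 R1881 array, below the other 3, and that of DBI was at 8.11 on 1 R1881 array, above the other 3. At gene level ZIC2 was at 9.32 on 1 steroid-deplete array, above the other 3, and MAK was at 4.54 on 1 steroid-deplete array, below the other 3.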

How the results depend on the processing

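The 5′ placement kept its direction under each alternative run, while the counts followed the limits. Without a limit on the exon-level mean 65.7% of flat probe sets lay in the first segment in transcript order, with gene-level Iter-PLIER values 73.1% and with a gene-level change of 2 or more 96.2%. Flat probe sets numbered 265 (89 in induced and 176 in repressed genes) for a gene-level change of 1 or more, 26 (12 and 14) for 2 or more, 52 (17 induced) for an exon-level change under 0.2, 122 (63 induced) for under 0.5, 132 (55 and 77) for a mean of 6 or more, 34 (15 and 19) for 8 or more, 268 (111 and 157) with no limit on the mean and 327 (80 and 247) with gene-level Iter-PLIER. The share of bright probe sets that were flat in induced genes was 1.65% under 0.2, 6.11% under 0.5, 4.94% with no limit on the mean, 6.51% with gene-level Iter-PLIER and 2.03% with brightness in either group as the base. In repressed genes it was 8.27% with exon-level Iter-PLIER, 27.9% with gene-level Iter-PLIER and 4.30% with brightness in either group. The repressed share was 5.32 times the induced share under 0.2, 1.85 times with no limit on the mean, 2.03 times with exon-level Iter-PLIER and 2.12 times with brightness in either group. By identifier the first and last segment held 50.6% and 43.8% for a change of 1 or more, 55.4% and 38.6% for 1 to under 1.5 and, turned by strand, 90.1% and 6.17%. In the order of bright probe sets alone the 3 segments held 51.9%, 12.3% and 35.8%. The middle segment held 0% at a mean of 8 or more and 15.9% with gene-level Iter-PLIER. The cause of these shifts was not tested beyond the limits themselves.

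Leaving out 1 array at a time gave 79 to 93 flat probe sets, 32 to 41 in induced and 42 to 61 in repressed genes, with 87.3% to 92.7% in the first segment in transcript order and a repressed share 2.84 to 4.15 times the induced one. Alternatives added after seeing the data were the set of 1 to under 1.5, either-group brightness, stricter and unupdated symbols, and strand from the promoter table alone.

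Exon-level calls numbered 25112, 39683 when only probe sets with a mean of 7 or more in either group were tested, and 16317 to 20101 with 1 array left out, the lowest without the second steroid-deplete array. Gene-level calls numbered 650 (48.8% higher), 1368 (32.5% higher) with Iter-PLIER and 631 (59.0% higher) with centred arrays. Same-numbered arrays of the 2 groups did not deviate together (correlations of -0.03 to 0.12), so the numbers were not taken to pair them. With the replicate number as a block there were 17695 exon-level and 650 gene-level calls, and none of the 81 members was called.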
